A study of Homo sapiens with 6 samples.

Results

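SMG1, PKD1 and NPIP are 3 gene families of chromosome 16. SMG1 and PKD1 each have near-identical partial copies on the same chromosome, and NPIP is a set of related genes there. Members were the rows of the deposited expression table named SMG1 or SMG1P with a number, PKD1 or PKD1P with a number, and NPIPA or NPIPB with a number. This gave 30 of 30960 rows: SMG1 and 7 copies, PKD1 and 3 copies, 6 NPIPA rows and 12 NPIPB rows. The families were chosen by their log2 change between the groups, since SMG1P3 and PKD1P1 had passed the threshold of a limma test in an earlier analysis of the same libraries. The differences between groups given for members are therefore descriptions with a standard error, and the count of members past that threshold is given only as part of how they were chosen.

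The RNA came from HEK293, an established human embryonic kidney cell line. The libraries fell into 2 groups of 3, lettered A to C, collected 48 h after delivery of 158 ng of plasmid per square centimetre. In the group PKI the plasmid encoded GFP joined to PKI1-24, a piece of the protein kinase inhibitor that blocks cAMP-dependent protein kinase (PKA). In the control group inPKI it encoded GFP joined to inPKI1-24. Both groups therefore carried plasmid and GFP, and an untransfected group was not analysed here. The series text calls the cells transduced and the protocol describes transfection with a lipid reagent, and the share of cells that took up plasmid is not given in the sources used here. A change in every cell and a change in a share of the cells cannot be told apart in such bulk RNA.

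SMG1 is a kinase related to phosphatidylinositol 3-kinases that phosphorylates UPF1 in nonsense-mediated decay, the pathway that removes mRNAs with premature stop codons. PKD1 encodes polycystin-1, a large membrane protein of renal epithelium and the gene most often mutated in autosomal dominant polycystic kidney disease. NPIP genes, named for a nuclear pore complex interacting protein, form the core of a segment that spread over chromosome 16 during ape evolution, and partial copies of SMG1 and PKD1 lie close to several NPIP genes. The numbered SMG1P and PKD1P copies are annotated as unprocessed pseudogenes, which keep exons and introns. The NPIP rows are all annotated as protein coding, so NPIP has no single parent gene here.

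The copies matched only part of each parent. In GENCODE 29 transcripts, the 7 SMG1 copies matched SMG1 with 97.8% to 98.8% identity, all between bases 414 and 4647 of its 16115-base longest coding transcript. That stretch holds the start of the coding sequence, and each copy covered 23.6% to 38.5% of the coding bases. The 3 PKD1 copies matched the 14138-base PKD1 transcript with 98.0% to 98.4% identity and ended between bases 10511 and 10516, short of the end of the coding sequence. PKD1P5 was the longest, covering 72.7% of the PKD1 transcript, against 46.8% for PKD1P1 and 33.7% for PKD1P6.

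**Figure D1:**
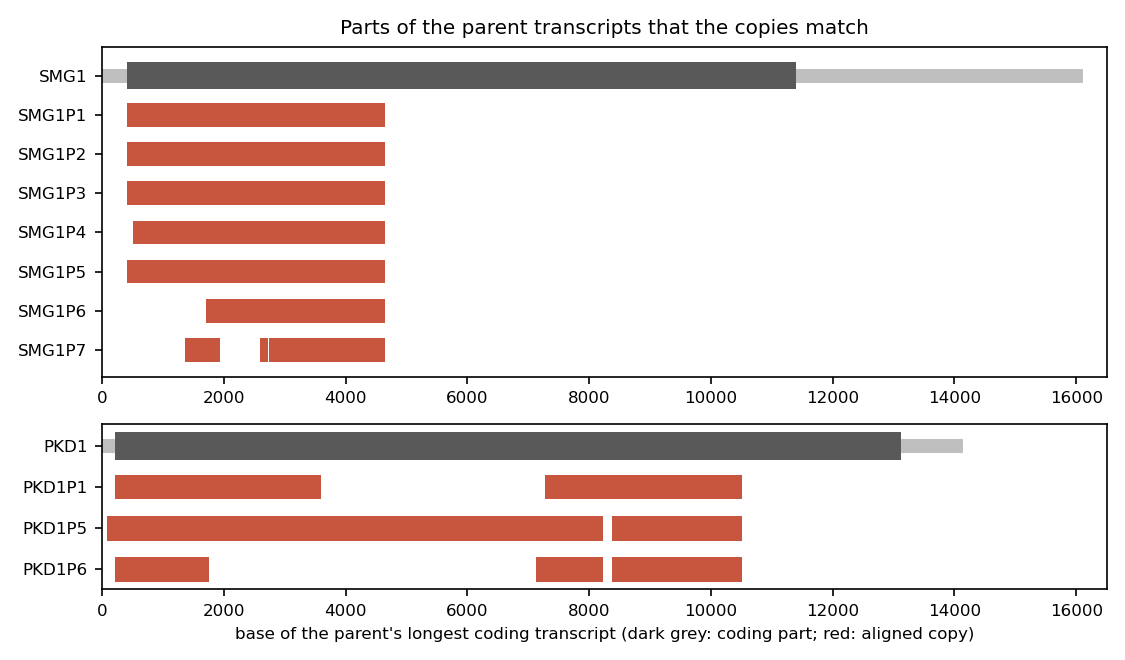
Aligned stretches of the 7 SMG1 copies (upper panel) and 3 PKD1 copies (lower panel) on the longest coding transcript of each parent, in bases from its start, with the coding part in dark grey. The SMG1 copies lie between bases 414 and 4647 of SMG1, while PKD1P5 spans most of PKD1 up to base 10516.

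The sequences below are shown because they carry the marks by which a read could be assigned to a parent or a copy. For SMG1 the stretch is bases 2748 to 2837 of the transcript, which all 7 copies cover. Capitals mark bases that differ from SMG1.
SMG1: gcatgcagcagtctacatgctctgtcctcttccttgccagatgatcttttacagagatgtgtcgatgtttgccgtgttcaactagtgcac
SMG1P1: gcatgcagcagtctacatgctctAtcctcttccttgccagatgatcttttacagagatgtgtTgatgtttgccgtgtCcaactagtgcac
SMG1P2: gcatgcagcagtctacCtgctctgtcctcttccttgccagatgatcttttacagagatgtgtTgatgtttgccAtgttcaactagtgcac
SMG1P3: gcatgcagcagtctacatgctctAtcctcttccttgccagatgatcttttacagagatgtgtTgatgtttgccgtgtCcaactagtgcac
SMG1P4: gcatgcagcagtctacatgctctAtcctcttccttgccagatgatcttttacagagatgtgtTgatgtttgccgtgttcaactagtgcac
SMG1P5: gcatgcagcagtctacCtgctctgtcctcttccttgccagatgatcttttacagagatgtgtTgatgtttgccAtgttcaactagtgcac
SMG1P6: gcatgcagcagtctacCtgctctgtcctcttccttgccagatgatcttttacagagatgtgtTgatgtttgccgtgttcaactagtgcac
SMG1P7: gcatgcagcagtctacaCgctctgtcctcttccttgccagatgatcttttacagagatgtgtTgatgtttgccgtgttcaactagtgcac
The copies differed from SMG1 at 2 or 3 of 90 bases. SMG1P1 and SMG1P3 were identical here, as were SMG1P2 and SMG1P5, so the 8 rows showed 6 distinct sequences. The capitals split the copies into a set of SMG1P1, SMG1P3 and SMG1P4 and a set of SMG1P2, SMG1P5 and SMG1P6.

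For PKD1 the stretch is bases 1543 to 1632 of its transcript, with capitals for bases that differ from PKD1.
PKD1: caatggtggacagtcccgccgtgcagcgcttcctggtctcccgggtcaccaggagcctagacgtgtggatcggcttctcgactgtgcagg
PKD1P1: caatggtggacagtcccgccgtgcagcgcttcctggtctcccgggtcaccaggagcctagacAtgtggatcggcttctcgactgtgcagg
PKD1P5: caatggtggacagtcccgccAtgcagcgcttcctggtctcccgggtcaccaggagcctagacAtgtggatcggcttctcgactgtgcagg
PKD1P6: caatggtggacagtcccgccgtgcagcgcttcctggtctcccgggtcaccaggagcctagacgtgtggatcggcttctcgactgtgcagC
PKD1P1 and PKD1P6 each differed from PKD1 at 1 base in this stretch and PKD1P5 at 2.

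For NPIP the stretch is bases 719 to 808 of the NPIPA1 transcript, with capitals for bases that differ from NPIPA1. Of the 17 NPIP rows that cover it, 11 sequences were distinct. The 5 shown are NPIPA1 and 4 of those that 2 or more rows share.
NPIPA1: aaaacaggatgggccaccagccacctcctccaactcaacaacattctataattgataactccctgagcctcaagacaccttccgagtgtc
NPIPA3: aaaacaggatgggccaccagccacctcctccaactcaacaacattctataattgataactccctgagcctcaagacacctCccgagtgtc
NPIPA7: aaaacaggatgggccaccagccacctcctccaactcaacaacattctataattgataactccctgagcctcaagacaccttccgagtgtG
NPIPB5: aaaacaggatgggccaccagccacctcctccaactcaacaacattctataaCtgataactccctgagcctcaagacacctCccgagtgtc
NPIPB12: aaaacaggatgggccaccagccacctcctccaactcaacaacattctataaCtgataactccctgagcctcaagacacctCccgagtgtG
NPIPA2 had the same sequence here as NPIPA3, NPIPA8 the same as NPIPA7, NPIPB3 and NPIPB4 the same as NPIPB5, and NPIPB13 the same as NPIPB12. Another stretch, bases 477 to 566 of the NPIPB5 transcript, separates more distant NPIPB rows from NPIPB5, with capitals for bases that differ from NPIPB5.
NPIPB5: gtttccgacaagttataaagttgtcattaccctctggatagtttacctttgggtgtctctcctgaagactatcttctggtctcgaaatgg
NPIPB2: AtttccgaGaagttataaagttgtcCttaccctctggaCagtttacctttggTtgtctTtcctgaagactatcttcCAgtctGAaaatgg
NPIPB6: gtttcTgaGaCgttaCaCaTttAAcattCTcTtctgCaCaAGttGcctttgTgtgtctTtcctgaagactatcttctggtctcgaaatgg
NPIPB11, NPIPB12 and NPIPB13 were identical to NPIPB5 in these 90 bases, whereas NPIPB2 differed at 10 and NPIPB6 at 18.

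How far reads can tell the rows apart was measured as the share of each row's 50-base transcript words found in no other annotated gene. That share was 85.0% for SMG1 and 67.5% for PKD1. Among the 28 other rows it ran from 0% (NPIPA2) to 63.9% (SMG1P7), with a median of 10.1%. SMG1P3 had 13.8% and PKD1P1 only 1.41%, and NPIPB12 had 0.795%. Longer words of 100 bases raised the median to 19.3%. SMG1P2 shared 93.0% of its words with SMG1P5, and NPIPB3 shared 97.4% with NPIPB5. PKD1P1 shared 80.3% with RP11-958N24.1 and 76.5% with AC138969.4, rows that the naming rule did not take. GENCODE 29 gives AC138969.4 the name PKD1P1 as well, as a protein-coding gene with its own gene ID. A value for a single copy is therefore uncertain, because it depends on how the counting divided shared reads, and sums over a family are given beside the rows. RSEM, named in the submitters' processing notes, is a program that divides such reads by estimated probability. The deposited values are nevertheless whole multiples of 1 read in 100% of cases, so how shared reads were divided here is not known.

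**Figure D2:**
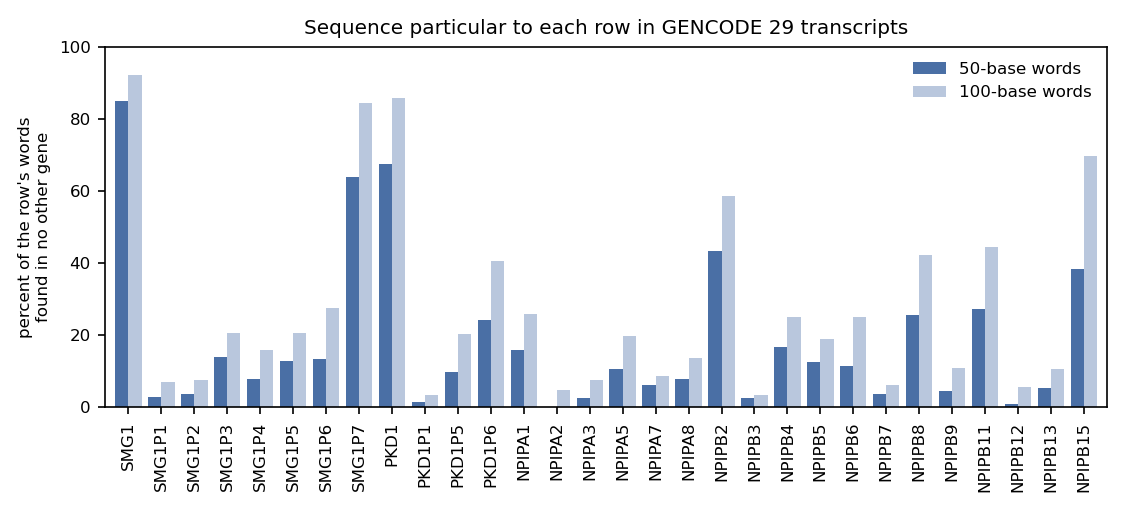
Percent of each row's 50-base (dark bars) and 100-base (light bars) transcript words that occur in no other GENCODE 29 gene, for the 30 rows. SMG1 at 85.0%, PKD1 at 67.5% and SMG1P7 at 63.9% stand highest for 50-base words, and NPIPA2 is at 0%.

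In GRCh38 (GENCODE 29), SMG1 lies on the minus strand at chr16:18804853-18926454 and PKD1 on the minus strand at chr16:2088710-2135898. SMG1P3 lies at chr16:21446683-21520444 and overlaps NPIPB3 by 1885 bases on the same strand. SMG1P1 overlaps NPIPB5 by 13100 bases and SMG1P4 overlaps NPIPB4 by 1490 bases, again on the same strand. PKD1P1 lies at chr16:16310341-16334190 and shares 16747 bases on the same strand with AC138969.4. Of all 30 rows, SMG1P7 and NPIPB15 lie farthest along the chromosome, at chr16:70219574-70246610 and chr16:74377878-74392080. These positions are the annotation's, since the deposited tables hold none.

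Levels are in CPM, read counts scaled to the size of each library, as deposited, and a change is the mean log2(CPM + 1) of PKI minus that of inPKI. The smallest value above 0 in each library, 0.0333 to 0.0437 CPM, was taken as 1 read. Dividing by it gave 17244715 to 23589438 reads per library over the rows of the table. The label check showed PKIA, the gene that encodes a protein kinase inhibitor, with a range of 8.65 to 11.3 CPM over the inPKI libraries and of 42.3 to 46.1 CPM over the PKI libraries. HEK293 markers summed to 896 to 919 CPM in inPKI and 794 to 907 CPM in PKI, with 6 of 8 above 1 CPM in every library. Markers of other cell types summed to 27.9 to 51.7 against 25.6 to 29.8 CPM for keratinocytes, 18.7 to 21.0 against 19.3 to 22.6 CPM for fibroblasts (DCN at 0) and 1.60 to 2.54 against 2.23 to 2.47 CPM for leukocytes (CD3E at 0). Of these markers, 3 of 4 for keratinocytes, 2 of 5 for fibroblasts and 0 of 5 for leukocytes were above 1 CPM in every library. PKI C stood apart, with the fewest reads and the lowest CPM sum, 754299 against up to 785007 in the others. PKI C was the highest of the 6 libraries in 19.2% of all 14275 rows tested. It was the highest in 60.0% of the 592 rows with a transcript of at least 10000 bases and in 52.2% of 226 other unprocessed pseudogenes.

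Among the members, 23 of 30 rows reached 1 CPM in at least 3 libraries and 7 did not (NPIPA2, NPIPA8, NPIPB2, NPIPB6, NPIPB7, NPIPB8 and NPIPB9). SMG1P6 and NPIPA7 reached it in all 3 PKI libraries but not in all 3 inPKI libraries. NPIPA3 reached it in inPKI A, PKI A and PKI B only. Of the 23 rows, 21 had a change above 0 and 2 below, with a median of 0.28 against -0.0074 over all rows tested. The filter itself favours a change above 0 in SMG1P6, NPIPA3 and NPIPA7, which would not have passed on their inPKI values alone. Among the other 20 rows the counts were 18 and 2 and the median 0.27. Every PKI library was above every inPKI library in 9 of the 23 rows, a state that 10.9% of all rows tested showed, and no member was below in every PKI library, as 8.88% of all rows were. Among the 20 rows with every inPKI library at 1 CPM or more, 8 had every PKI library above every inPKI library. With limma at an adjusted p of 0.05, 2 of the 23 were called, SMG1P3 and PKD1P1, against 0.126% of all rows. These counts use the contrast by which the families were chosen and stand as description. PKI C was the highest library in 18 of the 23 rows.

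**Figure D3:**
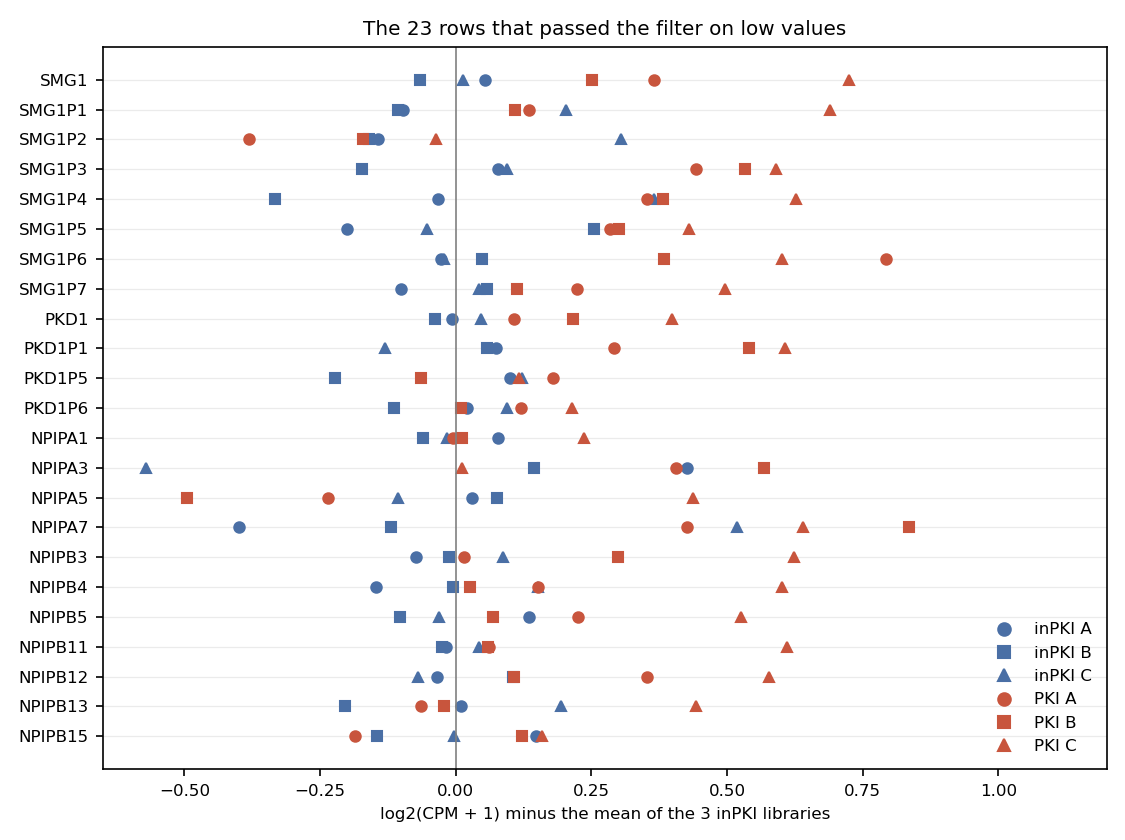
Each of the 23 rows that passed the filter in the 6 libraries, as log2(CPM + 1) minus the mean of the 3 inPKI libraries (blue, inPKI; red, PKI; circle, square and triangle for A, B and C). In 9 rows all red points lie right of all blue points, and the red triangle of PKI C is the rightmost point in 18 rows.

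SMG1 itself had the highest CPM of all members. It stood at 157, 145 and 153 CPM in inPKI A, B and C and at 195, 180.5 and 251 CPM in PKI A, B and C. All 3 PKI libraries were above all 3 inPKI libraries, and PKI C was the highest. The means were 152 ± 6.37 and 209 ± 37.2 CPM (SD, n = 3), a log2 change of 0.45 ± 0.091 (SE from limma). Without PKI C that change was 0.31. Between 3694 and 5738 reads per library lay behind these values.

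The 7 SMG1 copies together stood at 60.9, 61.6 and 71.4 CPM in inPKI and 76.6, 78.4 and 93.9 CPM in PKI. The sums did not overlap between groups, and their log2 change was 0.35 ± 0.12 (SE of the difference of means). Computed the same way, the SE of SMG1 was 0.15. The copies made up 29.9% ± 1.97 of the family's CPM in inPKI and 28.6% ± 1.57 in PKI (SD, n = 3), and these shares overlapped. SMG1P3, whose change led to the choice of the family, made up 27.6% ± 2.88 of the copies' CPM in inPKI and 31.5% ± 2.22 in PKI. Parent and summed copies were both higher in PKI, with no separation of their ratio. For the copies this is not independent of that choice, and a sum without SMG1P3 is not given here.

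SMG1P3 was at 18.8, 15.6 and 19.0 CPM in inPKI and at 24.5, 26.2 and 27.3 CPM in PKI. The groups did not overlap, and the values within each group were close, with means of 17.8 ± 1.89 and 26.0 ± 1.39 CPM. Its log2 change of 0.52 ± 0.081 is one of the values that led to the choice of the family. SMG1P1 was at 14.4, 14.3 and 17.9 CPM in inPKI and at 17.0, 16.7 and 25.5 CPM in PKI. Its groups overlapped, since inPKI C was above PKI A and PKI B, and its change of 0.31 ± 0.13 was 0.12 without PKI C. SMG1P4 overlapped as well, at 3.14 to 5.71 CPM in inPKI and 5.65 to 7.04 CPM in PKI, with a change of 0.45 ± 0.15 that was 0.29 without inPKI B.

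SMG1P2 and SMG1P5, which share most of their words, had changes of opposite sign. SMG1P2 was at 8.50, 8.39 and 11.95 CPM in inPKI and at 7.05, 8.32 and 9.23 CPM in PKI, a change of -0.20 ± 0.13 with overlapping groups. Without inPKI C that change was -0.045, and without PKI A -0.10. The share of SMG1P2 in the copies' CPM was 14.8% ± 1.71 in inPKI and 9.89% ± 0.703 in PKI. Every PKI library was below every inPKI library in that share, a difference that was not tested. The copies' CPM include SMG1P3, which led to the choice of the family. SMG1P5 was at 11.2, 15.6 and 12.5 CPM in inPKI and at 15.99, 16.2 and 17.8 CPM in PKI, with no overlap and a change of 0.34 ± 0.10. The sum of SMG1P2 and SMG1P5 overlapped between groups, at 19.7 to 24.4 CPM against 23.05 to 27.0 CPM, with a change of 0.13 ± 0.12.

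Summing the copies by the sets that the printed sequences show gave different sizes. SMG1P1, SMG1P3 and SMG1P4 together were at 37.3, 33.0 and 42.6 CPM in inPKI and 47.2, 48.7 and 59.8 CPM in PKI, with no overlap and a change of 0.45 ± 0.15. SMG1P2, SMG1P5 and SMG1P6 together were at 20.4, 24.9 and 25.2 CPM in inPKI and 25.2, 25.9 and 28.8 CPM in PKI, with a change of 0.18 ± 0.11. In this second set inPKI C and PKI A met at 25.2 CPM, and the groups overlapped. The first set holds SMG1P3, whose change led to the choice of the family, so the comparison of the sets is not independent of that choice. The difference between the sets was not tested.

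The remaining SMG1 copies were low. SMG1P6 was at 0.780, 0.875 and 0.786 CPM in inPKI and at 2.14, 1.36 and 1.75 CPM in PKI, from 19 to 58 reads per library. Its groups did not overlap, and its change was 0.59 ± 0.15 with a pseudocount of 1 but 0.89 with 0.25 and 0.21 with 5. SMG1P7, the copy with the most sequence of its own, was at 3.16, 3.65 and 3.60 CPM in inPKI and 4.21, 3.83 and 5.29 CPM in PKI. Its groups did not overlap, and its change of 0.28 ± 0.13 was 0.17 without PKI C.

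PKD1 was at 66.4, 64.9 and 68.9 CPM in inPKI and at 72.0, 77.7 and 88.3 CPM in PKI. The groups did not overlap, with means of 66.7 ± 2.02 and 79.3 ± 8.27 CPM and a log2 change of 0.24 ± 0.068. Without PKI C that change was 0.16. With all 6 libraries, the SE of the difference of means, as used for sums, was 0.088 for PKD1. TSC2, the tuberous sclerosis gene whose end overlaps that of PKD1 on the opposite strand, was at 123 ± 2.29 and 127 ± 5.37 CPM, with overlapping groups. The PKD1 copies together were at 50.8, 47.4 and 48.1 CPM in inPKI and 57.2, 60.8 and 66.2 CPM in PKI, with no overlap and a change of 0.32 ± 0.067. PKD1P1, whose change led to the choice of the families, made up 53.6% ± 4.02 of that sum in inPKI and 60.1% ± 3.54 in PKI. The change of the sum is therefore not independent of that choice. The PKD1 copies made up 42.2% ± 1.13 of the family in inPKI and 43.7% ± 0.741 in PKI, shares that overlapped.

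PKD1P1 was at 27.5, 27.2 and 23.7 CPM in inPKI and at 32.2, 38.4 and 40.2 CPM in PKI. The groups did not overlap, and the change of 0.48 ± 0.083 is the other value that led to the choice of the families. PKD1P6 was at 16.5, 14.9 and 17.4 CPM in inPKI and 17.7, 16.3 and 19.0 CPM in PKI, overlapping, with a change of 0.12 ± 0.081 that was 0.065 without PKI C and 0.058 without inPKI B. PKD1P5 was at 6.87, 5.29 and 6.99 CPM in inPKI and 7.31, 6.02 and 6.95 CPM in PKI, overlapping, with a change of 0.078 ± 0.12. Leaving out 1 library at a time moved the change of PKD1P5 between -0.034 (without inPKI B) and 0.15 (without PKI B). PKD1P6 took 33.3% ± 2.45 of the copies' CPM in inPKI and 28.9% ± 2.05 in PKI, without overlap. That difference was not tested, and PKD1P1, whose change led to the choice, holds the largest part of the copies' CPM. The share of PKD1P1 overlapped between groups.

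Rows that share sequence or position with the PKD1 copies gave mixed values. PKD1P6-NPIPP1, named as a read-through of PKD1P6 into NPIPP1, was at 6.05, 4.78 and 4.88 CPM in inPKI and at 6.46, 8.19 and 9.84 CPM in PKI, with no overlap and a change of 0.54 ± 0.13. NPIPP1 alone was at 4.73 ± 0.446 and 4.96 ± 0.840 CPM, overlapping. AC138969.4, which overlaps PKD1P1, was at 59.5 ± 3.53 and 60.6 ± 5.75 CPM, a change of 0.023 ± 0.069. With AC138969.4 added, the sum of the PKD1 copies was 113, 103 and 109 CPM in inPKI and 115, 118 and 133 CPM in PKI, still without overlap, and its change was 0.17 ± 0.077 in place of 0.32. RP11-958N24.1, which shares the most words with PKD1P1, was at 30.8 ± 4.03 and 36.7 ± 1.81 CPM, without overlap and with a change of 0.25 ± 0.081.

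The 18 NPIP rows together were at 177, 166 and 174 CPM in inPKI and at 190.3, 183 and 246 CPM in PKI. The groups did not overlap, but the change of 0.24 ± 0.14 was 0.11 ± 0.042 without PKI C. The 12 NPIPB rows summed to 131, 123 and 131 CPM in inPKI and 146, 137 and 191 CPM in PKI, without overlap. Their change was 0.29 ± 0.15, and 0.14 ± 0.053 without PKI C. The 6 NPIPA rows summed to 46.3, 42.4 and 44.0 CPM in inPKI and 44.2, 45.1 and 54.5 CPM in PKI, overlapping, with a change of 0.11 ± 0.10 and of 0.014 ± 0.040 without PKI C. NPIPA rows made up 25.6% ± 0.455 of the NPIP sum in inPKI and 23.4% ± 1.29 in PKI, with every PKI library below every inPKI library, a difference that was not tested.

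**Figure D4:**
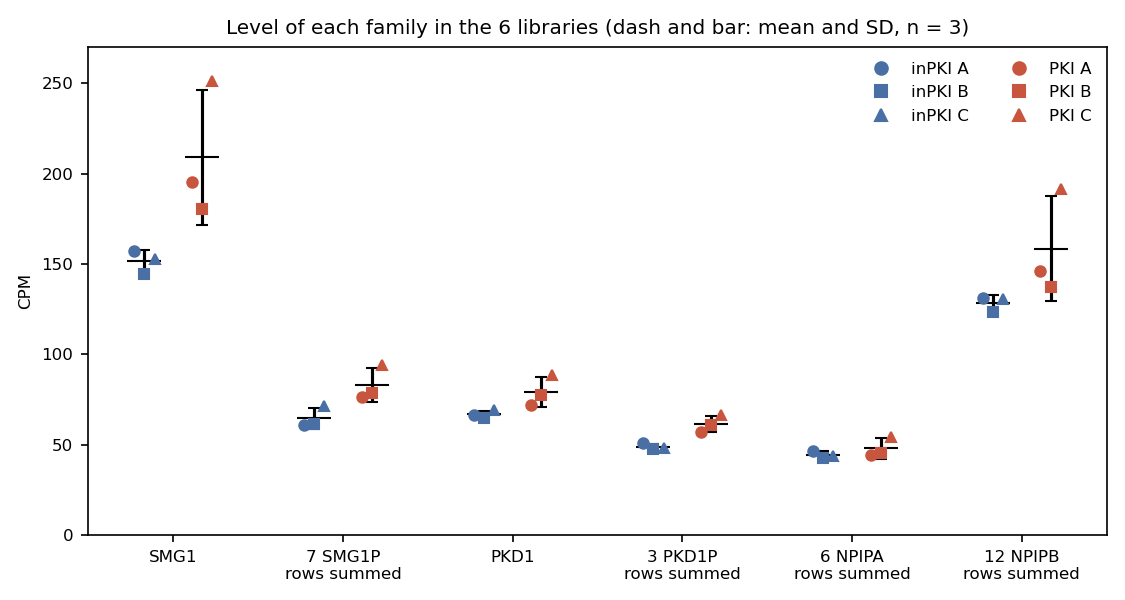
CPM of SMG1, PKD1 and the summed copies or NPIP rows in the 6 libraries (points; circle, square and triangle for A, B and C), with the mean and SD of each group (dash and bar, n = 3). PKI C is the highest point of every family, and only the 6 NPIPA rows overlap between groups. The summed copies include SMG1P3 or PKD1P1, which led to the choice of the families.

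NPIPB5 had the highest CPM of the NPIP rows, at 68.3, 57.7 and 60.8 CPM in inPKI and 72.8, 65.2 and 89.8 CPM in PKI. Its groups overlapped, since inPKI A was above PKI B, and its change of 0.27 ± 0.093 was 0.15 without PKI C. NPIPA1 was at 41.4, 37.5 and 38.8 CPM in inPKI and 39.0, 39.5 and 46.4 CPM in PKI, overlapping, with a change of 0.080 ± 0.071 that was 0.0022 without PKI C, 0.050 without inPKI B and 0.12 without PKI A. NPIPB12 was at 15.8, 17.5 and 15.4 CPM in inPKI and 21.0, 17.5 and 24.7 CPM in PKI. PKI B lay only just above inPKI B, so the groups met without crossing, and the change of 0.35 ± 0.10 was 0.23 without PKI C.

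NPIPB4 was at 19.6 to 24.3 CPM in inPKI and 22.2 to 33.5 CPM in PKI, and NPIPB3 at 16.5 to 18.6 CPM and 17.6 to 27.4 CPM, both overlapping. Their changes of 0.26 ± 0.12 and 0.31 ± 0.12 were 0.088 and 0.16 without PKI C. NPIPB3, NPIPB4 and NPIPB5, identical in the first NPIP stretch above, summed to 104, 96.7 and 104 CPM in inPKI and 115, 109 and 151 CPM in PKI, without overlap. The log2 change of the sum was 0.28 ± 0.15. NPIPB13 was at 2.99 to 4.26 CPM in inPKI and 3.398 to 5.25 CPM in PKI, and its change of 0.12 ± 0.15 ran from -0.043 (without PKI C) to 0.22 (without inPKI C) with 1 library left out.

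NPIPB11 was at 2.52 to 2.69 CPM in inPKI and 2.73 to 4.46 CPM in PKI. PKI A and PKI B lay just above the inPKI range and PKI C well above it, so that the change of 0.24 ± 0.15 was 0.060 without PKI C. NPIPA7 was at 0.273, 0.547 and 1.41 CPM in inPKI and 1.26, 2.00 and 1.62 CPM in PKI, overlapping, from 7 to 60 reads per library. Its change of 0.63 ± 0.21 depended on the pseudocount, at 1.06 with 0.25 and 0.21 with 5. The other NPIP rows that passed the filter were NPIPA3, NPIPA5 and NPIPB15, with changes of 0.33 ± 0.23, -0.098 ± 0.19 and 0.031 ± 0.14 and overlapping groups.

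The 7 rows below the filter had group means of at most 0.957 CPM. NPIPB6 was at 0.468, 0.511 and 0.414 CPM in inPKI and 0.849, 0.666 and 1.36 CPM in PKI, without overlap. NPIPA8 had 3 reads in inPKI C and 0 in the other libraries, where a count of 0 allows up to 0.0998 to 0.131 CPM. NPIPB7 had 7 reads at most and NPIPB8 had 2. NPIPA2, NPIPB2 and NPIPB9 overlapped between groups.

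Levels of different genes were compared per kilobase of the longest annotated transcript, in CPM per kilobase. In inPKI, SMG1 stood at 9.40, SMG1P3 at 4.18 and SMG1P4 at 1.04. In PKI, SMG1 stood at 13.0, SMG1P3 at 6.09 and SMG1P4 at 1.49. PKD1 was at 4.72 in inPKI and 5.61 in PKI, and PKD1P1 at 3.84 and 5.43, so the copy was nearly as high per length as its parent. NPIPB3 at 13.0 and NPIPB5 at 10.9 in inPKI were above SMG1 per length, while PKD1P5 was at 0.620. The value of NPIPB3 rests on a longest annotated transcript of 1.342 kb, against 3.606 kb for NPIPB4 and 5.708 kb for NPIPB5. For the copies and NPIP rows other than SMG1P7, most 50-base words are shared, so their levels depend on how the counting divided shared reads.

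Transcript length moved with the change in all rows tested. The 592 rows with a transcript of at least 10000 bases had a median change of 0.15, and 86.5% of them were above 0. Rows of 4000 to 10000 bases had a median of 0.033 and shorter rows one of -0.048. SMG1, PKD1 and PKD1P5 belong to the longest class. With the trends of length and GC content removed across all rows, the change of SMG1 was 0.28 and that of PKD1 0.068, while SMG1P3 was at 0.52 and PKD1P1 at 0.41. Other unprocessed pseudogenes, 226 rows, had a median change of 0.083, and 558 processed pseudogenes one of -0.15. The part of length, and of PKI C, in the members' values was not tested.

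**Figure D5:**
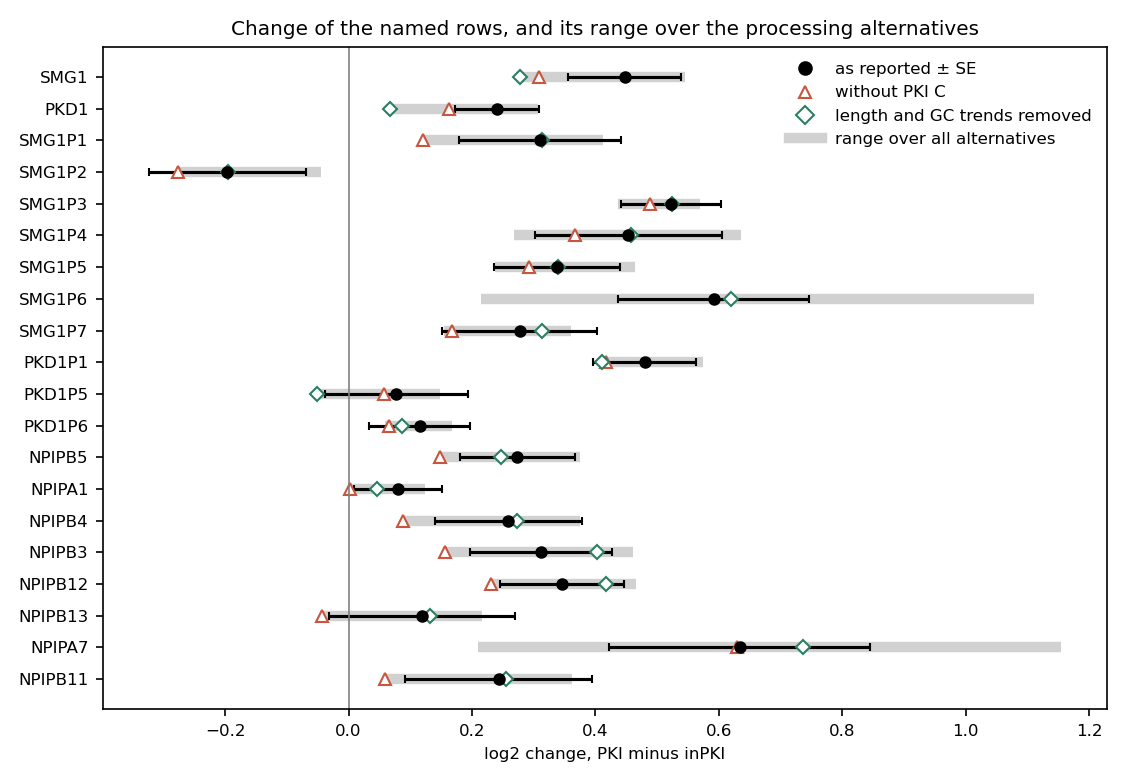
Log2 change (PKI minus inPKI) of the 20 named rows with its SE (black points), without PKI C (open triangles) and with length and GC trends removed (open diamonds); grey bars span all alternatives. SMG1P6 has no triangle because it did not pass the filter without PKI C. SMG1 and PKD1 move to 0.28 and 0.068 with the trends removed, and SMG1P3 stays at 0.52.

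Across the 23 rows, the change had a Spearman rank correlation of -0.22 with the share of unique words, 0.027 with the level and -0.059 with transcript length. These rows share reads and sequence, so the values only describe them.

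The log2 column of the authors' deposited table has the opposite sign to that table's own signed fold in all 30960 rows, and to the CPM in 100% of the 614 rows with a CPM change over 0.3. With the sign of the log2 column reversed, the authors' deposited table gave log2 fold changes of 0.48 ± 0.18 for SMG1, 0.56 ± 0.27 for SMG1P3, 0.26 ± 0.11 for PKD1 and 0.51 ± 0.22 for PKD1P1 (its own SE). Its adjusted p was 0.999944 for every member that has one, and NPIPB7 and NPIPB8 have none in the authors' deposited table. That table also holds a mean above 0 for 2069 rows that are at 0 in all 6 libraries, so it rests on more libraries than those analysed here.

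Genes that act with the parents were read from lists. Of all rows tested, limma called 0.126%. For edgeR, DESeq2 and the unadjusted p no such share is given here, so those counts cannot be set against a background. Of 21 nonsense-mediated decay factors tested with limma, 0 were called in either direction, 2 had an unadjusted p under 0.05, and edgeR and DESeq2 called 0. Their median change was -0.039, and every PKI library was below every inPKI library in 2 of the 21, a state that 8.88% of all rows tested showed. The smallest p belonged to UPF3B, which binds the exon junction complex, at 80.9, 80.1 and 74.2 CPM in inPKI and 69.2, 72.0 and 67.9 CPM in PKI, a change of -0.17 ± 0.055 (limma adjusted p = 0.221).

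Of 8 kinases related to SMG1 and their chaperone, limma called 0, 3 had an unadjusted p under 0.05, edgeR called 0 and DESeq2 called 2. In 4 of the 8 every PKI library was above every inPKI library, a state shown by 10.9% of all rows tested and by 49.8% of rows with a transcript of at least 10000 bases. The median change was 0.078. TRRAP, a pseudokinase scaffold of histone acetyltransferase complexes, was at 152, 146 and 151 CPM in inPKI and 181, 167 and 179 CPM in PKI, a change of 0.23 ± 0.054 (limma adjusted p = 0.124). Of 9 polycystins and neighbours of PKD1 tested, limma, edgeR and DESeq2 each called 0, and 0 had an unadjusted p under 0.05. The smallest p there was that of DNAJB11, a chaperone of the endoplasmic reticulum, with a change of -0.11 ± 0.059 and overlapping groups.

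Of 27 nucleoporins tested, limma called 0, 4 had an unadjusted p under 0.05, edgeR called 0 and DESeq2 called 2, and the median change was 0.019. In 6 of the 27 every PKI library was above every inPKI library, and in 0 every one was below. Over all rows tested those shares were 10.9% and 8.88%. RANBP2, a large protein of the pore's cytoplasmic filaments, had the smallest p, with means of 243 ± 3.49 (inPKI) and 279 ± 15.9 CPM (PKI) without overlap, a change of 0.20 ± 0.057 (limma adjusted p = 0.177). RANBP2 has its own family of recent copies, the RGPD genes of chromosome 2. Summed, the 7 RGPD rows averaged 99.4 ± 3.90 (inPKI) and 123 ± 8.82 CPM (PKI), without overlap, a change of 0.30 ± 0.067.

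Of 21 rows tested for 20 other duplicated genes of chromosome 16, limma called 1, SULT1A4, higher in PKI, and edgeR and DESeq2 called 0. The median change of the list was 0.0093, and 3 had an unadjusted p under 0.05. SULT1A4, a sulfotransferase of catecholamines, was at 1.25, 0.219 and 1.03 CPM in inPKI and 2.14, 4.23 and 3.50 CPM in PKI, a change of 1.24 ± 0.22 (limma adjusted p = 0.0490). SULT1A4 reached 1 CPM in all 3 PKI libraries but not in inPKI B, and without its PKI values it would not have passed the filter. Its near-identical partner SULT1A3 was at 4.99 ± 0.457 and 3.17 ± 2.08 CPM. Their sum overlapped between groups, at 5.83 ± 0.560 and 6.46 ± 1.04 CPM.

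PKA phosphorylates CREB, a factor that binds the cAMP response element TGACGTCA or its half-site TGACG, so the parents' upstream sequences were searched on both strands. The RefSeq windows run from 250 bases before to 50 after each start in GRCh38.p14, and the half-site also counts where it lies in a full element. Printed are the bases that lie upstream of both the RefSeq start and the GENCODE gene, with the half-site in capitals, for SMG1 at chr16:18926455-18926658 and for PKD1 at chr16:2135899-2136148, both on the minus strand.
SMG1: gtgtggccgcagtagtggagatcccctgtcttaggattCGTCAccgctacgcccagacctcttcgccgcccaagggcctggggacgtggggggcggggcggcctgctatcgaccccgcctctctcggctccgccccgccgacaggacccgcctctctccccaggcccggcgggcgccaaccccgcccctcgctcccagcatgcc
PKD1: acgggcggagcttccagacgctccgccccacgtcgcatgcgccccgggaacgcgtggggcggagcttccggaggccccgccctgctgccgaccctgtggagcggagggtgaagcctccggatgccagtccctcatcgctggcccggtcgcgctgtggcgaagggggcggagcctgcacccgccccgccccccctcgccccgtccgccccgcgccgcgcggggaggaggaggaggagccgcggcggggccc
The SMG1 window held 1 half-site, read here as its reverse complement CGTCA, and no full element. The PKD1 window held neither. Of all 35116 windows, 24.6% held the half-site and 1.85% the full element. A match of letters is a description, and these windows do not show what bound there.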

How the data were processed

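RNA of 6 HEK293 libraries was measured by RNA-seq. Without stating roles, the submitters' processing notes list the build hg19 and the tools RSEM 1.3.0 and STAR 2.5.2b, beside DESeq2 1.20.0 and cutadapt 1.14. The authors deposited CPM per gene, by the file's name RSEM values scaled by TMM. Per the file headers, the authors' deposited comparison gives a mean signal, log2 fold changes, a statistic whose kind is not named, a signed fold (scores) and p-values. Whether counting used strand is not given in the sources used here. All CPM values were whole multiples of 1 read (100%, tolerance 0.01).

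The main test was limma 3.58.1 on log2(CPM + 1) with a trend, over 14275 rows with at least 1 CPM in 3 libraries, Benjamini-Hochberg adjusted, threshold 0.05. edgeR 4.0.16 and DESeq2 1.42.0 were run on the recovered reads, and each was tested on simulated data. The SE of a row is limma's, and that of a sum is the SE of the difference of means. No label ties the libraries to different cultures, and errors cover only the spread among the 6 libraries, which may be technical. Positions, lengths and transcripts came from GENCODE 29 (GRCh38, matched by gene ID), and copies were aligned with blastn 2.17.0. The alternatives tried were other pseudocounts, filters, scalings, tools, the replicate block, each library left out, and length and GC trends removed.

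Members and lists were chosen with earlier results of these data known. Named rows were SMG1, PKD1, each of their copies that passed the filter, the 6 NPIP rows with the highest mean CPM and the 2 others with the smallest p; from each list, up to 3 called genes or else the one with the smallest p.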

Additional observations from a re-analysis of the deposited data

How the results depend on the processing

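Of the 30 rows, 2 were called (SMG1P3 and PKD1P1). That count was 1 with edgeR on the recovered reads, with median-ratio scaling, with equal-sum scaling, with the length trend removed and with length and GC trends removed, SMG1P3 in each case. It was 0 with no filter on low values, where more rows were tested. With 1 library left out it ranged from 0 to 4: 0 without inPKI B, 1 without inPKI A or inPKI C (SMG1P3), and 4 without PKI B (SMG1, SMG1P3, PKD1P1 and NPIPB12). DESeq2 called 3 (PKD1 added), as did a filter of 5 CPM and the data without PKI C (SMG1 added to both). The share of all rows called in each of these settings is not given here. The member counts therefore cannot be read as a property of the members. With 1 library left out, the change of the summed SMG1 copies ranged from 0.26 to 0.43. That of the PKD1 copies ranged from 0.27 to 0.37 and that of the NPIP rows from 0.11 to 0.33. No sum changed sign, and the sums of copies include SMG1P3 and PKD1P1, which led to the choice. PKD1P5 changed sign in 3 of its 17 settings, down to -0.051, and NPIPB13 in 1 of 16. The 2 length alternatives were chosen after seeing the data, and the cause of these differences was not tested. Same-letter libraries had correlated deviations of 0.017, 0.014 and 0.028, against -0.022 to 0.010 for pairs of different letters. All are small, so whether the letters A to C pair the samples was left undecided. With a replicate block 3 member rows were called (SMG1, SMG1P3 and PKD1P1). That block moved the SE of the summed SMG1 copies from 0.12 to 0.019. For the PKD1 copies it went from 0.067 to 0.083 and for the NPIP rows from 0.14 to 0.12. Depth limits the 7 rows under the filter.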

Other observations

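Some pairs of rows showed opposite patterns across libraries of 1 group. These pairs were chosen after their values were seen. NPIPA3 was at 1.33, 0.912 and 0.165 CPM in inPKI A, B and C, and NPIPA7 at 0.273, 0.547 and 1.41 CPM in the same libraries. Their sum stayed at 1.60, 1.46 and 1.57 CPM there and was 2.55, 3.56 and 2.36 CPM in PKI. BOLA2, which overlaps SMG1P6 on the same strand, was at 61.98, 32.9 and 31.0 CPM in inPKI, and its near-identical copy BOLA2B at 15.02, 44.8 and 41.7 CPM. The sum of BOLA2 and BOLA2B averaged 75.8 ± 2.69 CPM over inPKI A to C and 66.5 ± 1.51 CPM over PKI A to C (SD, n = 3), with every PKI library below every inPKI library, a difference that was not tested.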
